A study of Mus musculus with 19 samples.

Results

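The genes described here encode 10 receptors of the BMP, activin and TGF-beta family, and they were taken by symbol, as a family, from the 47069 genes listed in the RNA-seq count tables. They comprise the type I receptors Bmpr1a, Bmpr1b, Acvr1, Acvr1b and Tgfbr1, the type II receptors Bmpr2, Acvr2a, Acvr2b and Tgfbr2, and the co-receptor Tgfbr3. All 10 were matched through their Ensembl identifiers and all 10 passed the filter on low counts (Tgfbr2 only with the help of the iRGC libraries), as did 15941 genes in all. The study asked which genes separate retinal ganglion cells that project to the same side of the brain (iRGCs) from those that cross the midline (cRGCs), in mouse embryos at E16.5. GFP-positive cells were sorted from retinas of C57/DBA F1 embryos of both sexes, pooled, and 3 libraries of their poly(A) RNA were sequenced for each population. The iRGC embryos carried an Slc6a4-Cre transgene (the ET33 Sert-Cre line) and the cRGC embryos a Pou4f2-Cre allele targeted into the Pou4f2 locus, and embryos of both populations carried the Cre-dependent Sun1-GFP reporter at Rosa26, which marks the nuclear envelope. The labels give the genotype of all samples as WT, and no treatment was applied. The ventrotemporal region, where iRGCs arise, was cut out of the Pou4f2-Cre retinas before sorting. Position in the retina, Cre driver and axon projection therefore cannot be told apart in the comparison. A Cre reporter also marks the descendants of every cell in which the driver was once active.

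Receptors of this family work as complexes. A ligand brings a type II receptor, a constitutively active serine/threonine kinase, together with a type I receptor, which the former phosphorylates. The type I receptor then sets the route taken inside the cell, since Bmpr1a, Bmpr1b and Acvr1 phosphorylate Smad1, Smad5 and Smad9, whereas Acvr1b and Tgfbr1 phosphorylate Smad2 and Smad3. In the embryonic eye, BMP signalling is best known for patterning the dorsal retina, and Bmpr1b is known as a ventrally enriched receptor needed for the entry of ventral axons into the optic nerve.

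The sequences upstream of the start sites are shown for the 2 BMP type I receptors that were higher in iRGCs and for the activin type I receptor that was lower. They were taken from the RefSeq promoter table of GRCm38.p6, which held 12 windows for 9 of the 10 receptors and none for Tgfbr3. Each is written 5′ to 3′ on the strand of its gene and ends before the start site given there, or earlier where GENCODE places an exon. Capitals mark the GC box (GGGCGG on either strand) and GGCGCC, a sequence that Smad1 and Smad5 can bind. The table gives 3 starts for Bmpr1b, of which the one farthest upstream is shown. The GENCODE models of Bmpr1a and Bmpr1b, used here for positions and lengths, begin farther upstream still, so both sequences lie within the gene spans given below. What is printed for the 3 genes holds no base of an annotated exon.
Bmpr1a (chr14:34502688-34502796, minus strand): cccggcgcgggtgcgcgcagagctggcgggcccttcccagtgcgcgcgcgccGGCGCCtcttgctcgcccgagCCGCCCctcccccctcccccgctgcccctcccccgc
Bmpr1b (chr3:141982265-141982514, minus strand): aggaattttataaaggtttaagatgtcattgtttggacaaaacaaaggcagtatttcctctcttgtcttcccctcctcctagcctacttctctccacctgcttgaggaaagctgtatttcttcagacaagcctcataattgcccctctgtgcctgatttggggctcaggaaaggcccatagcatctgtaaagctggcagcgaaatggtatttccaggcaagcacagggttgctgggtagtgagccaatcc
Acvr1b (chr15:101173822-101174066, plus strand): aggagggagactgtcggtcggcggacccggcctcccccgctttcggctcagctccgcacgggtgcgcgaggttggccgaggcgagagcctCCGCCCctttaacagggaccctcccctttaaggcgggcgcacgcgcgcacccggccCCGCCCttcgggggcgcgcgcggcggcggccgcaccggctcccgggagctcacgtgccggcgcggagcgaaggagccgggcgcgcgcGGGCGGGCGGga

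The 3 windows differ in base composition. Over the 250 bases before the start, exonic bases included, GC content was 78.8% with 36 CpG dinucleotides for Bmpr1a and 78.8% with 42 CpG for Acvr1b. The same length before the Bmpr1b start shown had a GC content of 46.8% and 1 CpG. The other Bmpr1b starts of the table were likewise poor in CpG, with 5 each, and the medians over all 32851 windows of the table were 52.4% GC and 6 CpG. The GC box was found in 7 of the 12 receptor windows and in 32.7% of all windows, and in none of the 3 Bmpr1b windows. GGCGCC was found in 3 of the receptor windows, among them that of Bmpr1a, and in 9.59% of all windows. CCTGCTG, a core sequence bound by Zic factors, was found on neither strand in any receptor window and in 8.44% of all windows. None of these letters was tested for binding or activity here.

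Counts on genes came to 28193178 in the shallowest library and 33638083 in the deepest, of which the 10 receptors took from 25770 to 32425 per library. Levels are given as CPM, counts scaled to a common library size after TMM normalization, and as CPM per kilobase of exon where genes are set beside each other. Slc6a4, whose promoter drives the Cre of the iRGC line, stood at 2.06, 33.4 and 116 CPM in iRGC replicates 1 to 3 and at 48.1, 35.4 and 30.5 CPM in cRGC replicates 1 to 3, so the library labelled iRGC replicate 1 had less of it than any cRGC library. Zic2, the transcription factor that marks iRGCs, was higher in all iRGC libraries, at 155 ± 19.9 CPM (SD, n = 3) against 61.0 ± 4.38 (SD, n = 3), and Pou4f2 was lower, at 102 ± 29.6 against 227 ± 57.4.

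The sorted populations also differed in maturity markers. Of 17 ganglion cell markers, 16 were lower in iRGCs (against 23.1% of all genes tested), and their geometric mean was 99.5, 130 and 197 CPM in iRGC replicates 1 to 3 against 563, 515 and 471 CPM in the cRGC libraries. Their summed level was 3334 to 6819 CPM in iRGCs and 15740 to 19160 CPM in cRGCs, none was at 0, and Tubb3 was the most abundant. Of 16 retinal progenitor markers, 14 were higher in iRGCs (against 23.3% of all genes tested), with geometric means of 404, 399 and 320 CPM against 61.7, 125 and 90.5 CPM. Their summed level was 8406 to 10680 CPM in iRGCs and 2321 to 3445 CPM in cRGCs, none was at 0, and Ccnd1 was the most abundant. All 11 markers of neurogenic precursors were higher in iRGCs too, against the same 23.3%. In bulk RNA of this kind, fewer cells of a type and less RNA per cell cannot be told apart. The part of these markers in the receptor differences was not tested.

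Tgfbr2 would not have passed the filter on low counts on the cRGC libraries by themselves, so it is kept out of the counts that follow. Of the other 9 receptors, 5 passed edgeR's quasi-likelihood test at an adjusted p (Benjamini-Hochberg over all genes tested) under 0.1, where 46.4% of the 15941 genes tested did. Bmpr1a and Bmpr1b were higher in iRGCs (2 of 9, against 23.3% of all genes tested), and Acvr1b, Bmpr2 and Acvr2a were lower (3 of 9, against 23.1%). The change exceeded 2-fold in either direction for 3 of them, Bmpr1a, Bmpr1b and, by a narrow margin, Acvr1b, and for 23.1% of all genes tested. Acvr1b fell under 2-fold in 8 of the 14 alternative fits. The libraries of the populations did not overlap for the 5 called receptors, and did not overlap for 55.3% of all genes tested. These shares are near the background, so nothing about the family is read from them. The median log2 fold change of the 9 receptors was -0.09 and that of all genes tested -0.003.

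**Figure D1:**
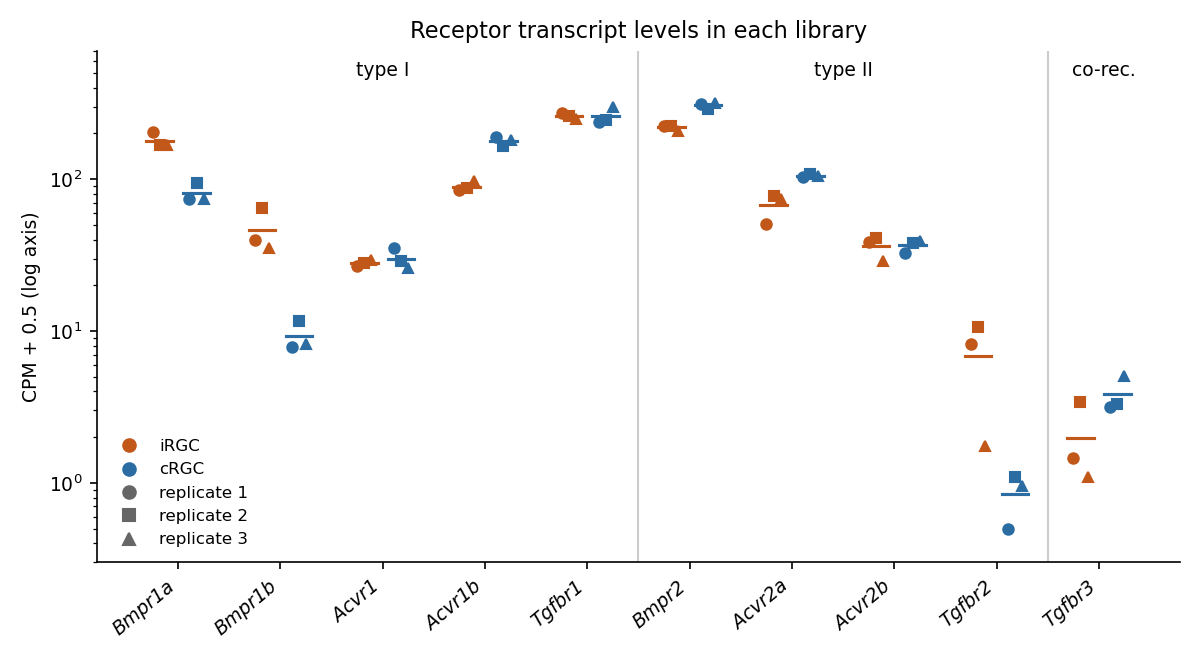
Transcript level of each receptor (CPM + 0.5, log axis) in the 3 iRGC and 3 cRGC libraries, with points for libraries, shapes for replicate numbers and bars for means. Bmpr1a and Bmpr1b sit higher in all iRGC libraries, Acvr1b, Bmpr2 and Acvr2a lower, and Tgfbr1 at nearly the same level in both.

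Bmpr1b (chr3:141837136-142169425, minus strand) showed the largest change among the well-counted receptors. Its level was 39.0, 63.8 and 34.8 CPM in iRGC replicates 1 to 3 and 7.30, 11.2 and 7.71 CPM in cRGC replicates 1 to 3. Every iRGC library stood above every cRGC library, and replicate 2 was the highest of the 3 libraries in each population. The means were 45.9 ± 15.7 and 8.72 ± 2.11 CPM (SD, n = 3), a 5.26-fold difference, with a log2 fold change of 2.39 (SE 0.279, edgeR adjusted p = 0.000327). Without iRGC replicate 2, the highest library, the log2 fold change was 2.08, and without iRGC replicate 1, the library low in Slc6a4, it was 2.50.

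Bmpr1a (chr14:34410734-34503341, minus strand) is the more widely expressed of the paired BMP type I receptors. It stood at 204, 167 and 167 CPM in the iRGC libraries and at 73.7, 94.2 and 73.9 CPM in the cRGC libraries. The lowest iRGC library was above the highest cRGC library by more than the whole range of either population. The means of 179 ± 21.4 and 80.6 ± 11.8 CPM (SD, n = 3) differed 2.22-fold, with a log2 fold change of 1.15 (SE 0.140, edgeR adjusted p = 0.000389). The annotation places 4.57% of its exonic bases under the overlapping gene Gm17110, and reads there cannot be assigned by position alone.

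Both receptors rose, but not in proportion. Per kilobase of exon, Bmpr1b amounted to 20.4%, 40.8% and 22.2% of Bmpr1a in iRGC replicates 1 to 3 and to 10.6%, 12.6% and 11.1% in the cRGC replicates. The ratio was higher in every iRGC library than in any cRGC library, with a log2 difference of 1.21. An exact two-sided permutation test gave p = 0.1, which is the smallest value that 3 libraries against 3 allow, and 0.1 after adjustment over the 4 ratios tested.

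Acvr1, the third type I receptor of the BMP branch (chr2), did not follow. It stood at 26.3, 27.6 and 29.0 CPM in the iRGC libraries and at 34.5, 28.6 and 25.5 CPM in the cRGC libraries. The populations overlapped, and the log2 fold change was -0.09 (SE 0.162, edgeR adjusted p = 0.694).

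Acvr1b (chr15:101174067-101213684, plus strand), a type I receptor for activins and related ligands such as myostatin and Gdf11, changed the other way. Its level was 83.8, 86.4 and 96.4 CPM in iRGC replicates 1 to 3 and 190, 164 and 181 CPM in cRGC replicates 1 to 3. All iRGC libraries lay well below all cRGC libraries, and the spread within each population was narrow. The means were 88.9 ± 6.63 and 178 ± 13.4 CPM (SD, n = 3), so the level was 2.01-fold higher in cRGCs, with a log2 fold change of -1.004 (SE 0.11, edgeR adjusted p = 0.000269).

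Tgfbr1 (chr4), the type I receptor for TGF-beta, stood at 272, 259 and 248 CPM in the iRGC libraries and at 237, 244 and 296 CPM in the cRGC libraries. The populations overlapped, and the iRGC libraries lay between the lowest and the highest cRGC library. The log2 fold change was 0.00 (SE 0.115, edgeR adjusted p = 0.994).

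The type I receptors differed more in their makeup than in their sum. Summed over the 5 type I receptors, the level per kilobase was 101 ± 3.39 in iRGCs and 100.3 ± 3.75 in cRGCs (CPM per kilobase, SD, n = 3). Within that sum, Bmpr1a, Bmpr1b and Acvr1 made up 42.1%, 41.9% and 38.9% in iRGC replicates 1 to 3 and 20.1%, 23.3% and 17.4% in cRGC replicates 1 to 3. The BMP share was larger in each iRGC library than in any cRGC library, at 41.0% ± 1.80 against 20.3% ± 2.94 (SD, n = 3), and Acvr1b with Tgfbr1 took the remainder. Bmpr1a and Bmpr1b together accounted for 35.3% ± 2.24 of the type I sum in iRGCs and 14.2% ± 2.64 in cRGCs. These shares restate the levels above and were not tested separately.

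**Figure D2:**
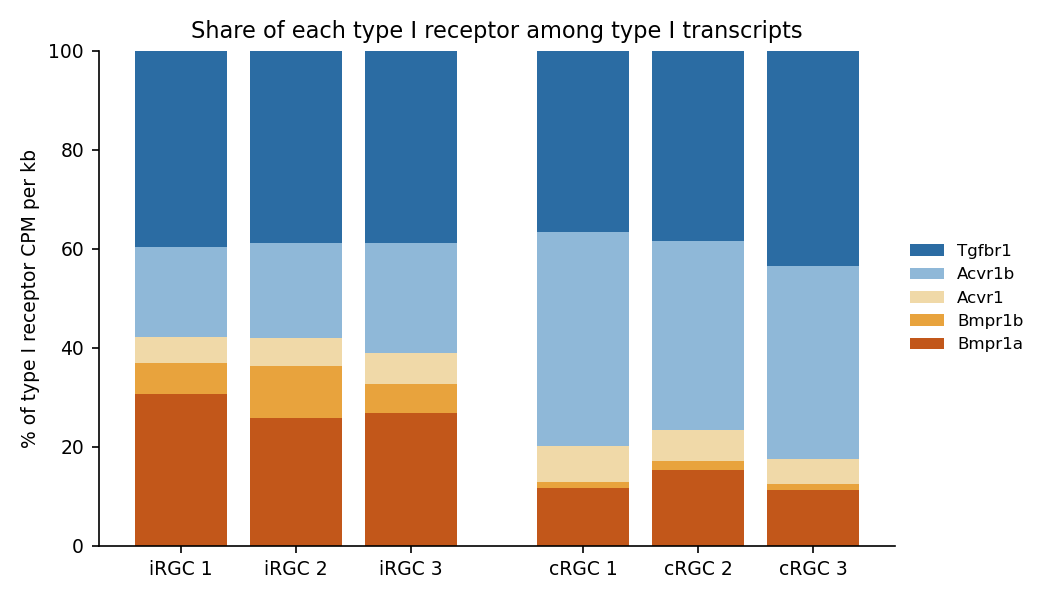
Share of each type I receptor in the summed type I level (% of CPM per kilobase of exon) in each of the 6 libraries, stacked to 100%. The BMP receptors Bmpr1a, Bmpr1b and Acvr1 fill 38.9% to 42.1% of the iRGC bars and 17.4% to 23.3% of the cRGC bars, and the share of Acvr1b is larger in the cRGC bars.

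Among type II receptors, Bmpr2 (chr1), which serves BMP ligands, stood at 225, 224 and 206 CPM in the iRGC libraries and at 310, 291 and 315 CPM in the cRGC libraries. The iRGC libraries were all lower, by less than for Acvr1b. Its level was 1.40-fold higher in cRGCs (218 ± 10.4 against 305 ± 12.8 CPM, SD, n = 3), with a log2 fold change of -0.48 (SE 0.0958, edgeR adjusted p = 0.00373).

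Acvr2a (chr2), a type II receptor shared by activins and several BMPs, stood at 49.9, 76.8 and 74.0 CPM in iRGC replicates 1 to 3 and at 103, 108 and 104 CPM in cRGC replicates 1 to 3. The cRGC libraries lay close together and above all iRGC libraries, of which replicate 1 was the lowest. The log2 fold change was -0.65 (SE 0.164, edgeR adjusted p = 0.0125), and without iRGC replicate 1 it was -0.48 (SE 0.106, edgeR adjusted p = 0.0106). The gene shares 7.84% of its exonic bases with Orc4.

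Its paralogue Acvr2b (chr9) did not pass the test, at 38.1, 40.7 and 28.4 CPM in the iRGC libraries and 32.2, 37.7 and 38.6 CPM in the cRGC libraries (log2 fold change -0.02, SE 0.171, edgeR adjusted p = 0.949). The populations overlapped. Per kilobase, Acvr2b amounted to 111%, 76.7% and 55.5% of Acvr2a in iRGC replicates 1 to 3 and to 45.3%, 50.6% and 53.8% in the cRGC replicates. The ratio was higher in all iRGC libraries, but replicate 3 was only just above the cRGC range, and without iRGC replicate 1 the log2 difference fell from 0.64 to 0.39 (exact permutation test p = 0.1 with all libraries).

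Summed per kilobase, the type II receptors came to 33.8 ± 3.27 CPM for the iRGC libraries and 44.7 ± 1.10 CPM for the cRGC libraries (SD, n = 3). Set against the type I sum, they amounted to 30.5%, 36.9% and 32.6% in iRGC replicates 1 to 3 and to 43.8%, 46.2% and 43.8% in the cRGC replicates. Every iRGC library thus had fewer type II transcripts per type I transcript, with a log2 difference of -0.42 (exact permutation test p = 0.1, the smallest possible).

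**Figure D3:**
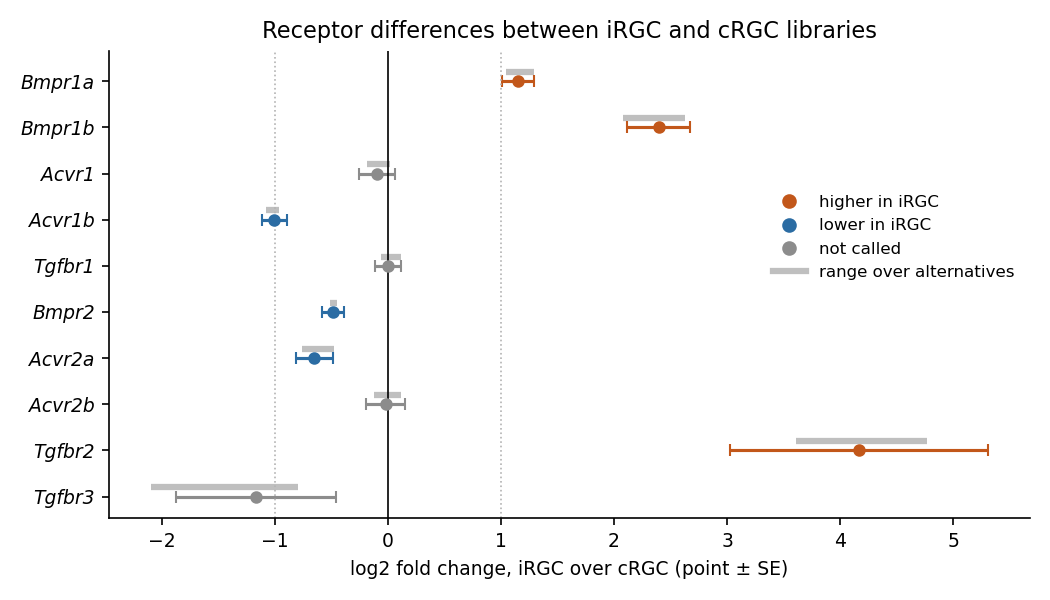
Log2 fold change of each receptor (iRGC over cRGC, point ± SE from edgeR), with a grey bar for the range over the alternative fits. Bmpr1a, Bmpr1b and Tgfbr2 lie above 0 with their whole ranges, Acvr1b, Bmpr2 and Acvr2a below 0, and the ranges of Acvr1, Tgfbr1 and Acvr2b cross 0.

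Tgfbr2 (chr9), the type II receptor for TGF-beta, had the largest log2 fold change and the least certain one. Its counts were 238, 328 and 40 in iRGC replicates 1 to 3 and 0, 17 and 14 in cRGC replicates 1 to 3, or 7.66, 10.1 and 1.26 CPM against 0, 0.587 and 0.452 CPM. The 0 in cRGC replicate 1 allows a level of up to 0.115 CPM, counting error only. The populations did not overlap, but iRGC replicate 3 was closer to the cRGC libraries than to the other iRGC libraries. The log2 fold change was 4.17 (SE 1.14, edgeR adjusted p = 0.0178), with an adjusted p of 0.153 in limma voom and of 0.0767 in edgeR without iRGC replicate 2. The gene would not have passed the filter on low counts on the cRGC libraries by themselves. For that reason no call is drawn from the fits that used this filter. With no such filter the log2 fold change was 4.16 (edgeR adjusted p = 0.00318). Without cRGC replicate 2 it was 4.77. Over the 14 alternatives that could test it, the adjusted p ranged from 7.51e-05 to 0.153. Per kilobase, Tgfbr2 amounted to 2.25%, 3.13% and 0.406% of Tgfbr1 in iRGC replicates 1 to 3 and to 0.192% and 0.122% in cRGC replicates 2 and 3, with no Tgfbr2 count in cRGC replicate 1 (exact permutation test p = 0.1, the smallest possible).

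Among the iRGC libraries, 12 of 16 endothelial markers stood in the same order as Tgfbr2, with replicate 2 above 1 and 1 above 3. This order was not particular to vascular markers. Bmpr1b had it too (39.0, 63.8 and 34.8 CPM), as did the geometric mean of the ciliary margin markers (8.44, 28.8 and 6.14 CPM). The share of all genes tested with this order was not counted. The geometric mean of 16 endothelial markers was 6.57, 29.8 and 0.964 CPM in iRGC replicates 1 to 3 and 0.512, 0.593 and 0.425 CPM in cRGC replicates 1 to 3, and their summed level was 494, 832 and 438 CPM against 89.4, 110 and 72.6 CPM. Of the 9 markers that passed the filter on low counts, 3 reached it in all libraries of both populations, so calls over the list are not counted. No cRGC library had a count for 5 of the 16 (Cdh5, Tie1, Adgrf5, Sox17 and Erg). Kdr, the most abundant of the list, stood at 366, 321 and 418 CPM in the iRGC libraries and at 83.7, 103 and 67.6 CPM in the cRGC libraries, and did not follow that order, nor did Cldn5, Emcn and Egfl7. The geometric mean of 12 mural cell markers was 1.5, 5.13 and 1.92 CPM against 0.368, 0.580 and 0.508 CPM, and their summed level was 139, 280 and 122 CPM against 21.4, 32.4 and 23.8 CPM. Of the 7 mural markers that passed the filter, 2 reached it in all libraries of both populations, 3 of the 12 (Acta2, Kcnj8 and Higd1b) were at 0 in all cRGC libraries, and Notch3 was the most abundant. The part of these markers in the Tgfbr2 difference was not tested.

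The receptors known from endothelium, Acvrl1 and Eng, were distributed alike. Acvrl1, an endothelial type I receptor, stood at 4.63, 12 and 0.599 CPM in iRGC replicates 1 to 3 and had no count in any cRGC library, so it passed the filter on low counts through the iRGC libraries alone and no test is given. Eng, its co-receptor, stood at 12.1, 53.1 and 0.252 CPM in the iRGC libraries, had no count in the cRGC libraries and did not pass the filter on low counts (it was named after its values were seen). Both were lowest in iRGC replicate 3 and highest in iRGC replicate 2.

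**Figure D4:**
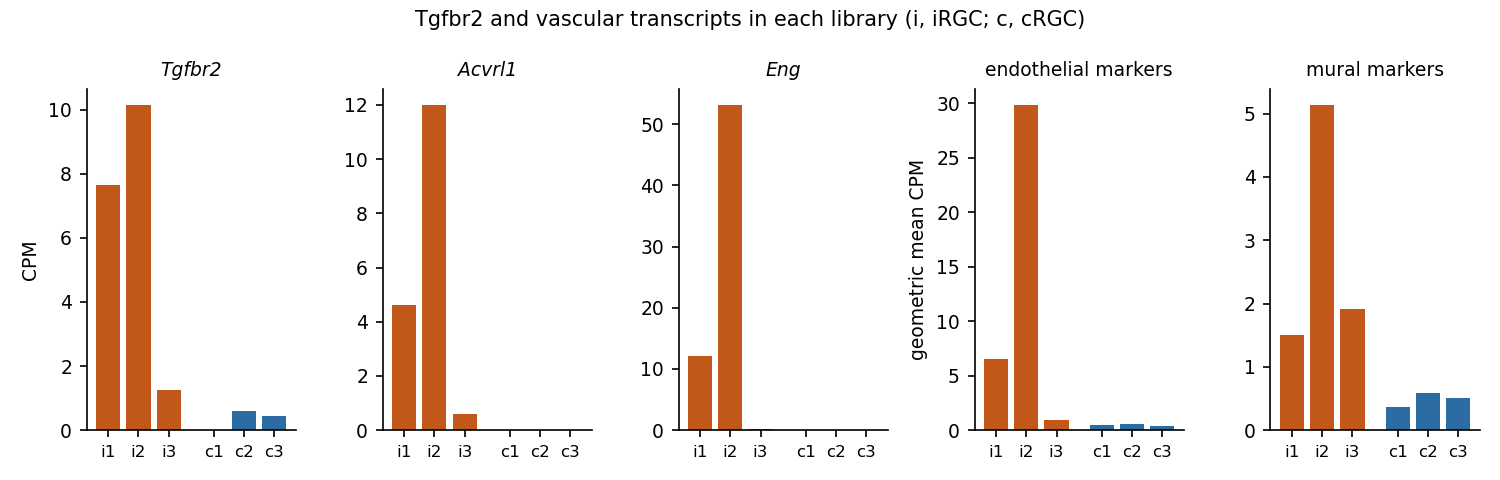
Bars of the level of Tgfbr2, Acvrl1 and Eng (CPM) and of the geometric mean of the endothelial and mural cell marker lists (CPM) in each library, each panel with its own axis from 0. iRGC replicate 2 is the highest bar in all panels, and the cRGC bars are at or near 0.

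Tgfbr3, or betaglycan, a co-receptor without a kinase that presents TGF-beta to its receptors, was scarce in both populations. It stood at 0.965, 2.91 and 0.599 CPM in the iRGC libraries and at 2.65, 2.80 and 4.58 CPM in the cRGC libraries. Only iRGC replicate 2 reached the cRGC range. The log2 fold change was -1.16 (SE 0.708, edgeR adjusted p = 0.233), and without that library it was -2.09 (edgeR adjusted p = 0.0594, within a range of 0.0594 to 0.528 over the alternatives). The gene shares 4.54% of its exonic bases with Gm43422.

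Ordered by level per kilobase of exon, Tgfbr1 led in iRGCs at 39.7 ± 1.80 CPM per kilobase (SD, n = 3), followed by Bmpr1a at 28.2 ± 3.38 and Acvr1b at 20.1 ± 1.5, and these neighbours did not overlap. Bmpr2 at 12.1 and Acvr2a at 11.8 CPM per kilobase overlapped, as did Acvr2a with Acvr2b at 9.09, Acvr2b with Bmpr1b at 7.69 and Bmpr1b with Acvr1 at 5.73. Tgfbr2 at 0.776 and Tgfbr3 at 0.228 CPM per kilobase closed the order. In cRGCs, Acvr1b at 40.3 ± 3.04 and Tgfbr1 at 39.7 ± 4.90 CPM per kilobase overlapped at the top, and Acvr2a at 18.4, Bmpr2 at 17.0, Bmpr1a at 12.7, Acvr2b at 9.21, Acvr1 at 6.11, Bmpr1b at 1.46, Tgfbr3 at 0.511 and Tgfbr2 at 0.0423 followed without overlap between neighbours. Bmpr1a thus moved from the fifth place in cRGCs to the second in iRGCs.

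The 3 genes whose pattern over the 6 libraries was most like that of a receptor were found among 13704 protein-coding genes by the root mean square difference of centred log2(CPM + 0.5). For Tgfbr2 they were Slco2b1 (0.306), Cavin1 (0.328) and Lyve1 (0.360), and all 3 were lowest among the iRGC libraries in replicate 3. For Acvr1b they were Ehbp1 (0.0402), Nlgn2 (0.0442) and Mvb12b (0.0451). For Bmpr1b, which was added after its values were seen, they were Slc38a4 (0.0889), Fzd4 (0.137) and Apoe (0.140), each highest in iRGC replicate 2. Sharing a highest or lowest library with the receptor largely follows from how these genes were picked.

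On chromosome 3, Bmpr1b ends 2211 bases from the end of Unc5c (chr3:141465216-141834924, plus strand), a netrin receptor transcribed towards it. The neighbours differed in opposite directions. Unc5c stood at 41.8, 59.4 and 54.4 CPM in the iRGC libraries and at 155, 163 and 173 CPM in the cRGC libraries (log2 fold change -1.66, SE 0.145, edgeR adjusted p = 0.000205).

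The other genes of the pathway were described from 10 lists, to which 2 lists of retinal position genes were added. Of 144 genes, which include Bmpr1b as a ventral gene, 113 were tested. Of these 113, 98 reached the filter on low counts in all libraries. Among these 98, 45 were higher in iRGCs and 30 lower, a share of 76.5% against 46.4% of all genes tested. Over all 113, 49 were higher and 30 lower (69.9%), but that count holds genes such as Acvrl1 that passed the filter through the iRGC libraries alone. The lists differ in kind and overlap in part, and the share was not tested.

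Ligands of the BMP and GDF class passed the test in 1 case. Of 20 such genes, 9 were tested, of which Bmp2, Bmp3 and Bmp4 passed the filter on low counts through the iRGC libraries alone. Among the 6 that reached it in both populations, 16.7% were called (11.1% of all 9), against 46.4% of all genes tested. The called gene, Bmp6, was lower in iRGCs, at 0.740, 1.27 and 2.37 CPM in iRGC replicates 1 to 3 and 7.11, 10.3 and 4.97 CPM in cRGC replicates 1 to 3 (log2 fold change -2.35, SE 0.537, edgeR adjusted p = 0.00771). Bmp4, the dorsal BMP ligand, stood at 0.933, 3.56 and 0.441 CPM against 0.461, 0 and 0 CPM and did not pass the test.

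Of 13 genes for ligands of the activin and TGF-beta receptors, 7 were tested. Inhbb passed the filter on low counts through the iRGC libraries alone, and Tgfb1 reached it throughout neither population. Both are left out of the counts. Among the other 5, 2 were higher in iRGCs and 3 lower, against 23.3% higher and 23.1% lower of all genes tested. Tgfb2 stood at 125, 116 and 138 CPM in iRGC replicates 1 to 3 and 14.2, 35.6 and 29.2 CPM in cRGC replicates 1 to 3, which gave a log2 fold change of 2.26 (SE 0.289, edgeR adjusted p = 0.000475). Mstn, which encodes the Acvr1b ligand myostatin, stood at 31.6, 44.8 and 56.6 CPM against 237, 205 and 138 CPM, which gave a log2 fold change of -2.12 (SE 0.253, edgeR adjusted p = 0.000355). For each of these genes the populations were far apart. Tgfb3 (log2 fold change 1.70) and Inhbb (2.63), a subunit of activin B, were higher in iRGCs, whereas Inha (-1.61), the inhibin subunit, and Gdf11 (-0.50) were lower. Inhbb would not have passed the filter on low counts on the cRGC libraries by themselves, and without iRGC replicate 3 its log2 fold change was 2.00.

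Of 11 co-receptors and related membrane proteins, 8 were tested, 2 were higher and 1 lower, or 37.5% called against 46.4% of all genes tested. Cd109, a TGF-beta co-receptor that restrains signalling, averaged 11.2 ± 2.03 CPM over the iRGC libraries and 1.32 ± 0.138 CPM over the cRGC libraries (SD, n = 3; log2 fold change 3.08, edgeR adjusted p = 0.000258). Bambi, a decoy receptor without a kinase, was at 30.6, 22.6 and 26.7 CPM in the iRGC libraries and 7.80, 9.22 and 6.97 CPM in the cRGC libraries (log2 fold change 1.74, edgeR adjusted p = 0.000358). Rgmb, a BMP co-receptor, was lower in iRGCs at 32.1 ± 9.63 against 109 ± 25.3 CPM (log2 fold change -1.76, edgeR adjusted p = 0.000749). Of the 3 further receptors of the family, Acvr1c (log2 fold change 0.42, edgeR adjusted p = 0.617) was not called, and Amhr2 was not tested.

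Extracellular antagonists and modulators went both ways, with 8 higher, 9 lower and 3 not called of the 20 that reached the filter on low counts in both populations, against 23.3% higher and 23.1% lower of all genes tested. The latent TGF-beta binding proteins Ltbp1 (log2 fold change 3.22) and Ltbp3 (2.22) were higher in iRGCs. Vwc2 (2.43), a BMP antagonist, was under the filter on low counts in 1 cRGC library. It passed only with the help of the iRGC libraries, so no call is drawn for it. It stood at 1.99, 3.40 and 2.02 CPM in iRGC replicates 1 to 3 and at 0.384, 0.759 and 0.226 CPM in cRGC replicates 1 to 3. The BMP-binding proteins Bmper (-2.45) and Kcp (-2.30) and the follistatin-like gene Fstl5 (-1.78) were lower. Without cRGC replicate 2, the log2 fold change was 2.98 for Ltbp3 and 3.02 for Vwc2.

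All 8 Smad genes passed the test, 6 higher and 2 lower in iRGCs, where 46.4% of all genes tested passed it in either direction. Over the 15 fits (the one described here and 14 alternatives), Smad9 was called in 11 and Smad4 in 14. Smad6, an inhibitory Smad of the BMP branch, stood at 12.3, 13.6 and 15.6 CPM in iRGC replicates 1 to 3 and 1.27, 2.66 and 1.39 CPM in cRGC replicates 1 to 3, with a log2 fold change of 2.96 (SE 0.368, edgeR adjusted p = 0.000418). Among the Smads of the activin and TGF-beta branch, Smad3 was higher (1.27) and Smad2 lower (-0.90). Among those of the BMP branch, Smad5 (0.65) and Smad9 (1.53) were higher and Smad1 was lower (-0.48). Smad7 (1.20), an inhibitory Smad of both branches, and the common partner Smad4 (0.36) were higher.

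Of 17 tested regulators of Smads, 6 were higher and 6 lower, or 70.6% called against 46.4% of all genes tested. The corepressors Tgif1 (log2 fold change 2.63) and Tgif2 (2.39, or 3.07 without cRGC replicate 2) and Pmepa1 (1.66), an inhibitor induced by TGF-beta, were higher in iRGCs. Tgif2 shares 61.6% of its exonic bases with 5430405H02Rik and Gm37790. The ubiquitin ligases Nedd4l (-1.50) and Smurf1 (-0.90) and Fkbp1a (-0.65), which holds type I receptors inactive, were lower. Of 12 effectors outside the Smad route, 5 were higher and 3 lower, or 66.7% called. The ubiquitin ligases Traf6 (log2 fold change 0.85) and Xiap (0.63) and the kinase adaptor Tab2 (0.54) were higher in iRGCs, whereas the cofilin kinases Limk2 (-1.26) and Limk1 (-0.99) and the small GTPase Cdc42 (-0.35, called in 13 of 15 fits) were lower.

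Of 12 known targets of BMP signalling that were tested, Msx1 passed the filter on low counts through the iRGC libraries alone and is left out of the counts. Of the other 11, 9 were higher in iRGCs, 1 was lower and 1 was not called, against 23.3% higher and 23.1% lower of all genes tested. Their median log2 fold change was 1.74, against -0.003 for all genes tested, and the list was not tested as a set. Id3, a direct BMP target that inhibits bHLH factors, stood at 198, 195 and 181 CPM in iRGC replicates 1 to 3 and 10.6, 33.9 and 19.9 CPM in cRGC replicates 1 to 3, with a log2 fold change of 3.15 (SE 0.353, edgeR adjusted p = 0.000284). The populations were far apart, and the cRGC libraries varied more than the iRGC libraries. Msx1 stood at 2.06, 8.16 and 0.568 CPM in the iRGC libraries and at 0, 0.173 and 0.129 CPM in the cRGC libraries, an order of iRGC libraries in which replicate 2 led, as it did for the endothelial markers. Grem1, a BMP antagonist, was lower (log2 fold change -1.12, edgeR adjusted p = 0.0950) and was called in 10 of 15 fits. Id genes are also expressed in retinal progenitors, whose markers were higher in the same libraries, and their part was not tested.

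Of 9 targets of TGF-beta signalling that were tested, Tgfbi and Col1a1 reached the filter on low counts in every iRGC library but not in every cRGC library, were not called and are left out of the counts. Of the other 7, 6 were higher and 1 was lower, against 23.3% and 23.1% of all genes tested (median log2 fold change 1.66). Ccn2 was at 42.9, 22.3 and 38.1 CPM in the iRGC libraries and 3.42, 4.00 and 2.81 CPM in the cRGC libraries (log2 fold change 3.34, edgeR adjusted p = 0.000205), with 23.2% of its exonic bases shared with another gene. Fn1, or fibronectin, was 5.26-fold higher in iRGCs and Col1a2 4.74-fold higher. Col1a2 is also the most abundant gene of the fibroblast marker list and stood at 9.62, 16.4 and 3.78 CPM in iRGC replicates 1 to 3 and 0.846, 2.31 and 3.13 CPM in cRGC replicates 1 to 3, so that iRGC replicate 2 led here as it did for the endothelial markers. The part of fibroblast, vascular and progenitor markers in the differences of these targets was not tested. Cdkn1a, a cell cycle inhibitor, was lower (log2 fold change -1.05, edgeR adjusted p = 0.0677) and was called in 12 of 15 fits.

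**Figure D5:**
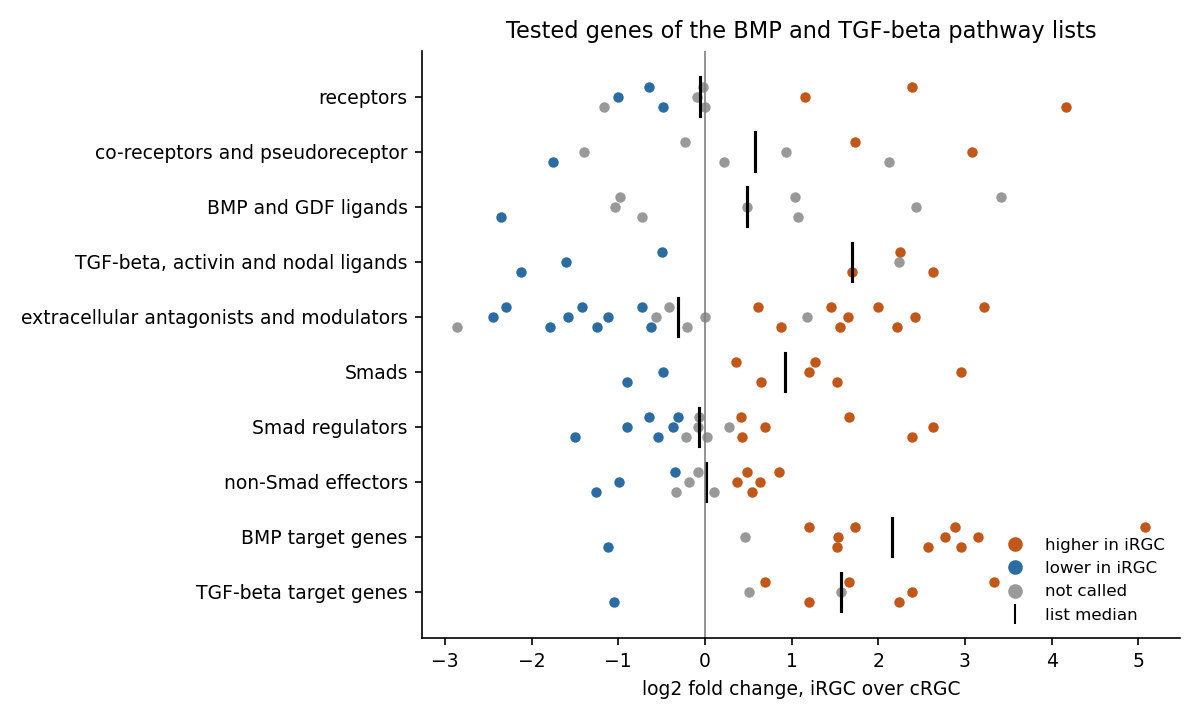
Log2 fold change (iRGC over cRGC) of every tested gene of the receptor and pathway lists, 1 point per gene coloured by its call, with a black line for the list median. The receptors and the Smad regulators scatter on both sides of 0, and most BMP target genes lie above 0. Acvrl1 and Acvr1c are not drawn.

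Position in the retina was read from 8 dorsal and 6 ventral genes. Of the dorsal genes, 6 passed the test with a higher level in iRGCs and 1 with a lower level, against 23.3% and 23.1% of all genes tested. The former included Aldh1a1 at 147, 532 and 103 CPM in iRGC replicates 1 to 3 and 10.0, 20.3 and 30.5 CPM in cRGC replicates 1 to 3 (log2 fold change 3.68, edgeR adjusted p = 0.00218), Tbx3 (1.75) and Efnb2 (1.20). For Aldh1a1 iRGC replicate 2 led, as it did for the endothelial markers, and without that library the log2 fold change was 2.62 (edgeR adjusted p = 0.00308). The lower one was Tbx5, a transcription factor of the dorsal retina, at 9.10, 14.2 and 5.77 CPM in iRGC replicates 1 to 3 and 10.1, 17.4 and 60.5 CPM in cRGC replicates 1 to 3 (log2 fold change -1.60, edgeR adjusted p = 0.0686). The populations overlapped for Tbx5, cRGC replicate 3 stood apart, and the gene was called in 10 of 15 fits (log2 fold change -0.50 without that library, edgeR adjusted p = 0.452). Of the 6 ventral genes, against the same background, Bmpr1b and Aldh1a3 (2.79) were higher, whereas Vax2 (-1.07), Ephb3 (-0.71) and Ephb2 (-0.24, called in 8 of 15 fits) were lower.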

How the data were processed

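RNA-seq libraries of sorted cells were analysed, 3 per population. The 13 ATAC-seq samples were not analysed here. Per the labels and the study's methods, the authors aligned reads with HISAT2 2.1.0 and deposited raw counts per gene from HTSeq 0.11.1. Its tallies naming no gene (43.1% to 47.3% of each table) were left out. Symbols, positions and exon lengths came from GENCODE M21 (GRCm38) for 46574 of 47069 genes. Whether the counting used strand is not given in the sources used here, so overlapping genes were marked.

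The test, over all genes, was that of edgeR 4.0.16 in R 4.3.3 (filterByExpr, TMM, quasi-likelihood test, Benjamini-Hochberg, adjusted p under 0.1, the threshold of the study's methods). Fits were tested on simulated data, and no result of that is given here. Nothing in the labels says that replicates came from separate litters, so p-values measure the spread between these libraries. All receptors were named. From each pathway or position list, up to 3 called genes per direction without overlap and with a mean of at least 1 CPM were named by size of change, or any tested gene in lists of 8 or fewer. Of marker lists the most abundant gene was named. Exceptions are marked. The members and lists were chosen with earlier results of these data known. Alternatives were DESeq2 1.42.0, limma 3.58.1 voom, other size factors, filters, genes and thresholds, a replicate block and leaving out each library.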

Additional observations from a re-analysis of the deposited data

How the results depend on the processing

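Bmpr1a, Bmpr1b, Acvr1b, Bmpr2 and Acvr2a were called in each of the 15 alternatives. Tgfbr2 passed the filter on low counts only with the help of the iRGC libraries, so its calls are not counted here. With at least 10 counts in every library, 2 receptors changed over 2-fold, against 3 of the 9 above, because Acvr1b fell just under the threshold. Tgfbr2 was not tested there. For Tgfbr2 the adjusted p was 0.153 in limma voom and 0.0178 in edgeR, and no call is drawn from either. Tgfbr3 was called only without iRGC replicate 2 (-2.09, edgeR adjusted p = 0.0594). The sign turned for 3 receptors that were not called in any fit. Leaving out a library gave Acvr1 -0.18 to 0.023, Acvr2b -0.12 to 0.11 and Tgfbr1 -0.064 to 0.12 (log2 fold change). Upper quartile factors gave Acvr2b 0.016, and Tgfbr1 was -0.0027 with no filter and -0.0071 with protein-coding genes alone. The cause was not tested. Replicate numbers are shared between the populations, but same-numbered libraries did not deviate together (correlations of -0.0121, -0.0237 and -0.0550). These values cannot show whether same-numbered libraries were collected or prepared together. With the replicate block, 6751 genes were called, against 7395 without it. Leaving out each library moved the count of genes called between 6303 and 7603 and the pathway and position genes called between 67 and 80, against 79. With 3 libraries per population, the permutation test of a ratio cannot give a p under 0.1, and levels under about 0.1 CPM rest on 3 counts or fewer.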

Other observations

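Markers of other cell types were measured beside the receptors. The 11 microglia markers had summed levels of 21.5, 29.1 and 19.0 CPM in iRGC replicates 1 to 3 and 1.85, 4.42 and 2.65 CPM in cRGC replicates 1 to 3. Erythroid markers summed to 12.2, 94.7 and 15.7 CPM against 0, 5.49 and 0.290 CPM, so iRGC replicate 2 led there as it did for the endothelial list. Lens, pigment epithelium and fibroblast markers summed to at most 14.3, 10.2 and 38.1 CPM in any library. The 9 ciliary margin markers had a summed level of 415, 654 and 264 CPM against 142, 137 and 145 CPM. For the microglia and erythroid lists no marker reached the filter on low counts in all libraries of both populations, and for the ciliary margin list 4 did, so calls over these lists are not counted. Photoreceptor precursor markers gave 5 higher and 1 lower of 7 tested, and amacrine and horizontal cell markers 6 higher and none lower of 11, against 23.3% higher and 23.1% lower of all genes tested. Of the 2 astrocyte and optic stalk markers tested, 1 was higher. Of the 6 iRGC markers that reached the filter on low counts in both populations, 4 were higher and none was lower, against 23.3% and 23.1% of all genes tested. Slc6a4 (log2 fold change 0.41, edgeR adjusted p = 0.768) and Ephb1 (-0.26, edgeR adjusted p = 0.499) were not called. The other iRGC marker tested, Slc17a8, passed the filter through the cRGC libraries alone and went the other way. It stood at 0, 0.371 and 0.315 CPM in iRGC replicates 1 to 3 and 3.00, 2.45 and 3.45 CPM in cRGC replicates 1 to 3.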
